A study of Mus musculus with 54 samples.

Results

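The cytosolic ribosome is built from ribosomal RNA and a fixed set of ribosomal proteins, and the mRNAs of these proteins were followed here in mouse liver. Members were the rows of the expression table whose gene symbol begins with Rpl or Rps and a digit, together with Rpsa, Rplp0, Rplp1 and Rplp2. Symbols that begin with Rps6k (kinases of Rps6), end in bp1 or contain -ps (annotated pseudogenes) were left out, and a mean of at least 1 FPKM over all libraries was required. FPKM are fragments scaled by transcript length and by the mapped fragments of the library. Of 24346 genes in the table, 87 symbols matched and 84 met the level rule, 34 for the small subunit and 50 for the large subunit. The 3 matching genes below the level, Rpl10l (0 FPKM), Rpl39l (0.0209 FPKM) and Rpl3l (0.0376 FPKM), are known from testis or muscle, and the lowest members were Rpl37rt (1.75 FPKM) and Rps27 (11.3 FPKM).

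Livers came from 3 genotypes. WT mice express the core clock gene Bmal1 (gene symbol Arntl) everywhere. KO mice carry a floxed STOP sequence in Bmal1. RE mice carry the same allele together with Syt10-Cre, whose activity is meant to bring Bmal1 back to the central clock in the brain, the suprachiasmatic nucleus, while the liver stays without it. Each genotype was sampled at ZT0, ZT4, ZT8, ZT12, ZT16 and ZT20 (hours after lights on), with 3 libraries in each of the 18 groups and 18 libraries per genotype. The labels state no age, sex or strain. The labels call each library a liver and do not say whether each came from a separate mouse, so p-values measure the spread between these libraries.

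Ribosomal proteins are needed in near-equal numbers, and cells are known to make them together. Their mRNAs carry a terminal oligopyrimidine tract (TOP), a run of C and T beginning at the first transcribed base, through which mTOR complex 1 and the RNA-binding protein Larp1 set how well they are translated. In liver, feeding and mTOR signalling are known to drive translation of these messages at certain hours of the day, and the clock is known to act on ribosome production. RNA levels, which were measured here, are a different quantity from translation.

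The start regions show runs of C and T near the start in some of the members on which the results turn. The longest run need not be the tract, since it may lie off the annotated start. In Rps12 and Rpl22l1 it begins after that start, and in Rps27rt and Rpl7l1 it ends before it. Each sequence runs from 10 bases before to 20 bases from the annotated RefSeq start, on GRCm38.p6 (mm10), 5′ to 3′ on the gene's strand, and capitals mark the longest run of C and T.
Rps12 (chr10:23787190-23787219, minus strand): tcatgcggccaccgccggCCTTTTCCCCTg
Rpl15 (chr14:18270967-18270996, minus strand): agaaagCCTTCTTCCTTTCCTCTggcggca
Rplp2 (chr7:141447641-141447670, plus strand): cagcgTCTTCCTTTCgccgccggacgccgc
Rpl22l1 (chr3:28805498-28805527, plus strand): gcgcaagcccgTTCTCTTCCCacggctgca
Rpl7l1 (chr17:46782637-46782666, minus strand): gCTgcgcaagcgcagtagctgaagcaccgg
Rps27 (chr3:90213629-90213658, minus strand): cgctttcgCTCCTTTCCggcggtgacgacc
Rps27rt (chr9:114982720-114982749, minus strand): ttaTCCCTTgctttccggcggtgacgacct
The run is 11 bases long in Rps12, 17 in Rpl15, 10 in Rplp2 and 10 in Rpl22l1, and 2 in Rpl7l1. Short runs are not particular to Rpl7l1: the longest run was also 2 in Rps3 and Rps3a1, and 3 in Rpl5, Rpl26 and further members. The windows of Rps27 and Rps27rt share a stretch of 19 bases, and both genes are taken up again with those that share sequence. In the first 20 bases of the annotated transcripts, a run of at least 8 C or T was present in 40.2% of 82 members with a GENCODE transcript and in 14.4% of 10207 tested genes. The letters CTTTC were present there in 20.7% of members and 4.97% of tested genes, and CTTTT in 12.2% and 4.08%, on the transcribed strand. A gene was counted when any of its protein-coding transcripts matched. The number of transcripts per gene was not matched between members and tested genes. The RefSeq promoter table matched 63 of the 84 members, under 80%, so the comparison over that table is void. A match describes the letters at an annotated start, which can lie off the base where transcription begins.

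Some facts of the series bear on what follows. Total FPKM per library ran from 572995 to 751399. The files hold no read counts, so depth is unknown and precision rests on the spread between libraries. Arntl ranged from 0.202 to 10.3 FPKM over WT libraries, from 9.76 to 14.2 over KO libraries and from 7.60 to 15.5 over RE libraries. That range covers the whole gene and does not check the STOP allele. The 7 hepatocyte markers summed to between 43000 and 82337 FPKM, although Serpina1c was listed at 0 in 8 of 54 libraries and Alb in 21. The zeros of Alb largely follow genotype. They include every WT library, while the KO and RE group means of Alb ran from 9454 to 16149 FPKM. Total FPKM in WT therefore lacks Alb, and the part of this in the differences from WT was not tested. Of the 84 members, the library RE ZT16 library 2 had the highest summed FPKM (76005) and KO ZT8 library 1 the lowest (34562), and the main results that rest on either are also given without it.

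Ribosomal protein mRNA was higher in livers of both Bmal1-deficient genotypes than in WT. The 84 members together reached a mean of 42805 ± 4012 FPKM in WT (SD, n = 18), 50653 ± 6357 in KO and 52512 ± 7982 in RE, which is 1.18 times WT in KO and 1.23 times WT in RE. Over the 18 WT libraries the sum had a lowest value of 35682, a median of 42354 and a highest value of 51911 FPKM. The KO libraries spanned 34562, 51279 and 64113, and the RE libraries 41870, 51954 and 76005. The 3 ranges overlap, and the median KO and the median RE library lay close to the highest WT library. As a share of total FPKM the members took 6.36 ± 0.387% in WT, 7.53 ± 0.661% in KO and 7.45 ± 0.908% in RE. FPKM is relative to the rest of the library, and the WT totals hold no Alb. Without RE ZT16 library 2 the RE mean was 51130 ± 5582 FPKM (SD, n = 17), 1.19 times WT, and without KO ZT8 library 1 the KO mean was 51599 ± 5080 (n = 17), 1.21 times WT, so the order of KO and RE turned with both left out. In whole liver, fewer cells of a type and less RNA per cell cannot be told apart.

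**Figure D1:**
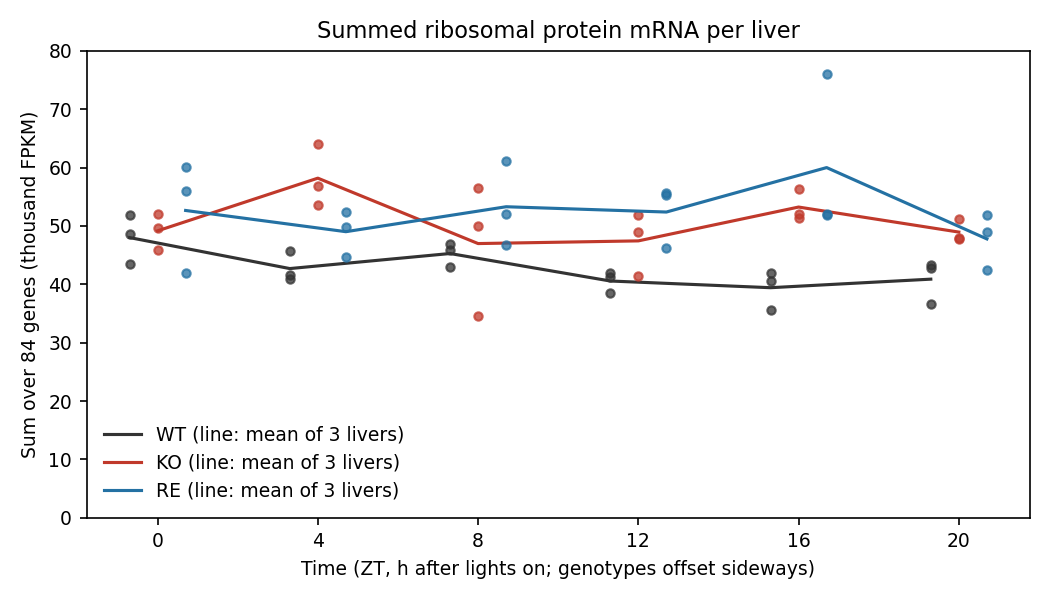
Sum of FPKM over the 84 ribosomal protein genes (y axis, divided by 1000) in each of the 54 libraries against time of day (ZT, x axis; genotypes are offset sideways), with lines through the means of 3 livers. WT falls from a mean of 48003 FPKM at ZT0 to 39416 at ZT16, while the RE mean of 59989 at ZT16 rests on 1 library at 76005: without it the mean is 51981, below the RE means at ZT0 (52644), ZT8 (53282) and ZT12 (52376).

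Averaged over the 6 times, 72 of the 84 members were higher in KO than in WT and 1 was lower, by limma with Benjamini-Hochberg adjustment at 0.05 over 10932 tested genes. Over all those genes 42.3% were called, 22.1% higher and 20.2% lower. The member differences had a median of 0.24 on the log2(FPKM + 1) scale, 1.18-fold, where the median of all tested genes was 0.00, and 81 of 84 were above 0. In RE, 78 of 84 members were higher than in WT and none was lower, beside 45.9% of all tested genes called (24.2% higher, 21.7% lower), with a member median of 0.28 (1.21-fold). These comparisons share the 18 WT libraries, so their values are given side by side and do not support each other. In the small subunit 25 of 34 genes were higher in KO and 30 of 34 in RE, and in the large subunit 47 of 50 and 48 of 50. Leaving out any 1 library left between 69 and 78 members called in KO and between 77 and 80 in RE. In KO 68 members were called as higher in each of those 54 fits, and the calls that ended in some were Rps27l (14 fits), Rps29 (10), Rpl8 (6), Rps25 (6) and Rps28 (2). In RE 77 were called as higher in each, all of those called except Rplp2.

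**Figure D2:**
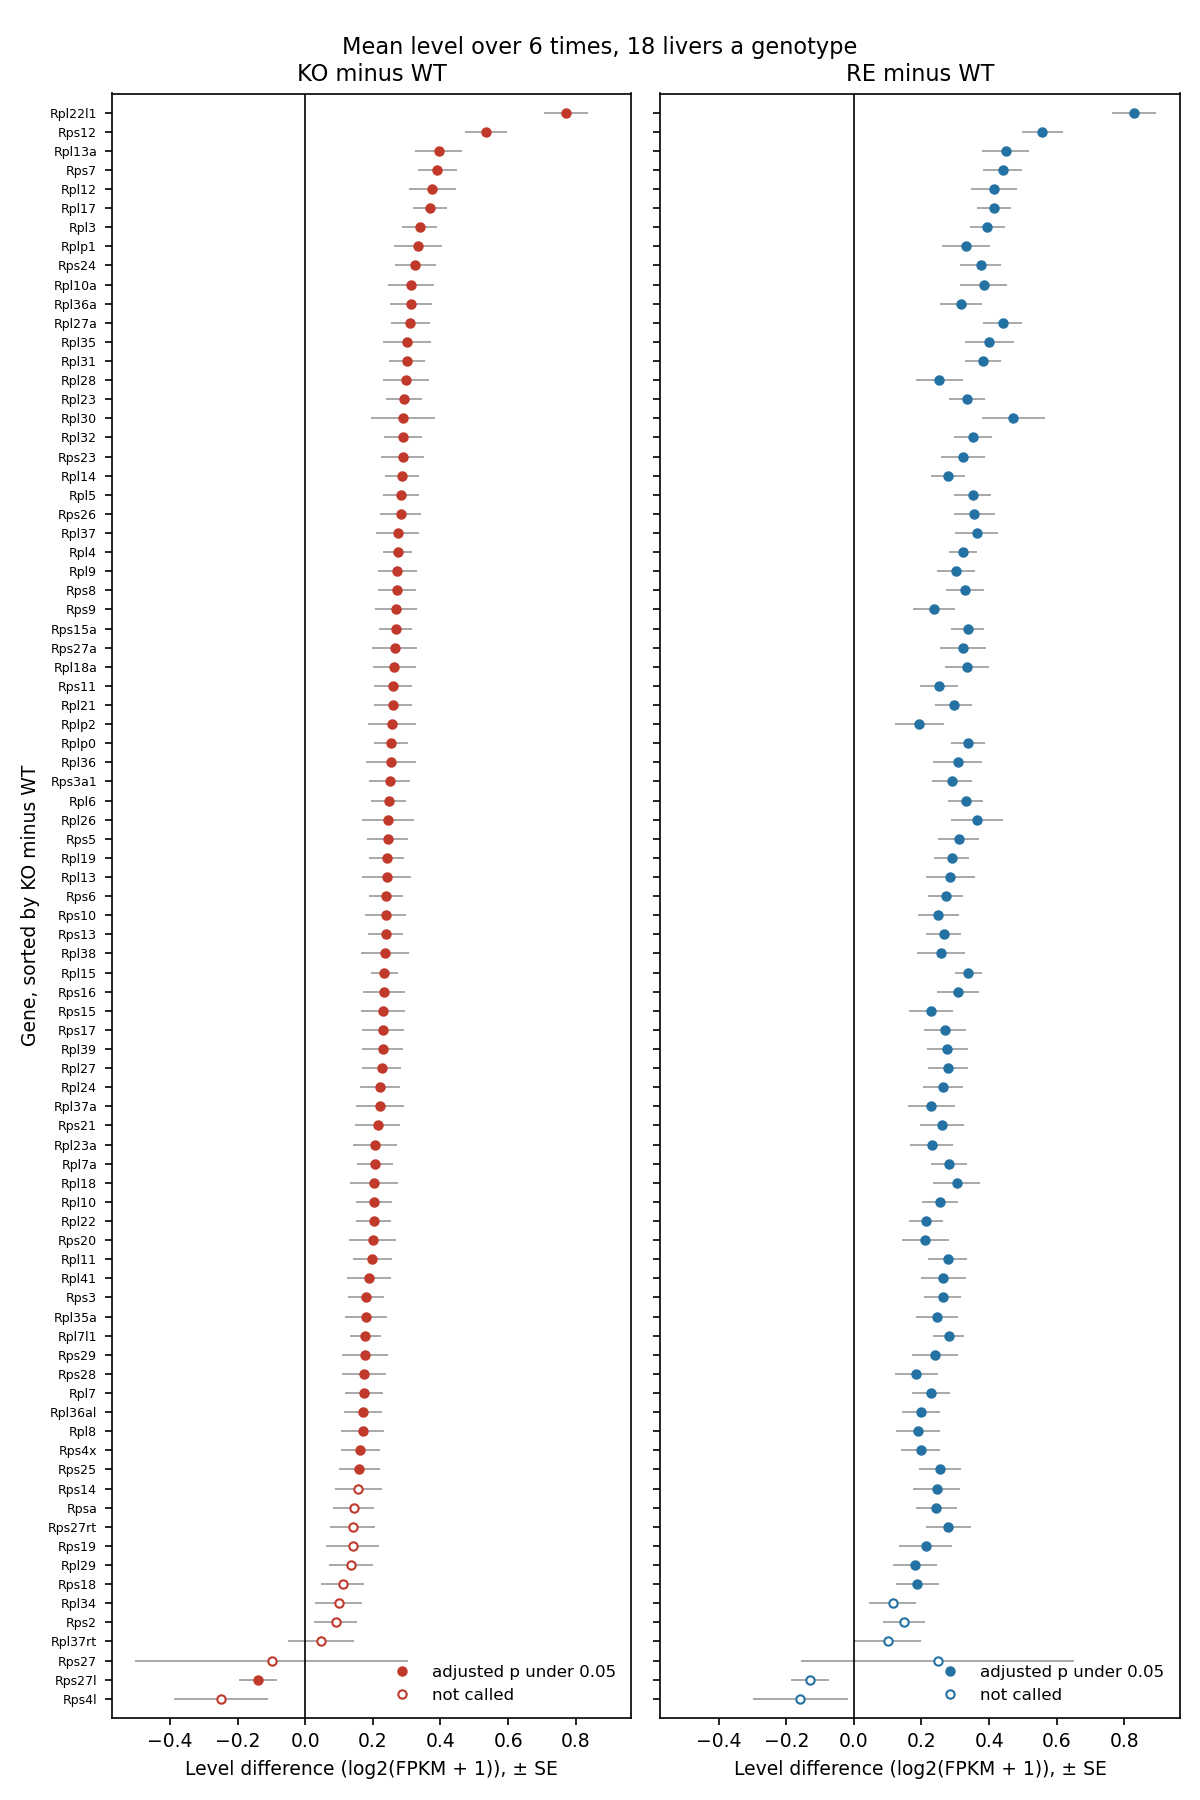
Difference in mean level over the 6 times from WT (log2(FPKM + 1), x axis) for each of the 84 genes (y axis, ordered by KO minus WT), with KO on the left, RE on the right and bars of 1 SE. Filled points passed an adjusted p of 0.05; Rpl22l1 (0.77 in KO, 0.83 in RE) and Rps12 (0.53 and 0.56) lie farthest to the right, and Rps27l and Rps4l lie left of 0 in both.

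Rpl22l1 differed most. It encodes a paralogue of the large subunit protein Rpl22 that can take its place on the ribosome (chromosome 3, 28805508 to 28807424, mm10). In WT it ranged from 112 FPKM over a median of 160 to 209. In KO the lowest, median and highest libraries were at 193, 280 and 369 FPKM, and in RE at 225, 299 and 349. Every RE library was above every WT library, while the KO and WT ranges overlapped at their edges. It exceeded WT by 0.77 in KO (log2, SE 0.07, adjusted p 1.01e-12, limma) and by 0.83 in RE (SE 0.07, adjusted p 1.27e-13). Rpl22l1 was also called at 5 of the 6 times in KO and at all 6 in RE, with differences of up to 1.18 and 1.16 at ZT16. Rpl22 itself (chromosome 4) had means of 55.3 ± 4.71, 63.9 ± 7.57 and 64.6 ± 9.66 FPKM in WT, KO and RE (SD, n = 18), a rise of 0.20 (SE 0.05, adjusted p 0.00147) in KO and 0.21 (adjusted p 0.000786) in RE. No 50-base stretch of an annotated Rpl22l1 transcript occurs in Rpl22.

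Rps12, a protein of the head of the small subunit (chromosome 10, 23785183 to 23787383, mm10), came next. It had a lowest value of 576, a median of 773 and a highest value of 915 FPKM in WT. The KO libraries had 801, 1130 and 1481 FPKM and the RE libraries 921, 1131 and 1590. Again all 18 RE libraries were above all WT libraries. The difference was 0.53 in KO (log2, SE 0.06, adjusted p 1.90e-09, limma) and 0.56 in RE (adjusted p 6.47e-10). The Rps12 window printed above lies inside these coordinates, so its pyrimidine run is not at the outermost annotated start of the gene.

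**Figure D3:**
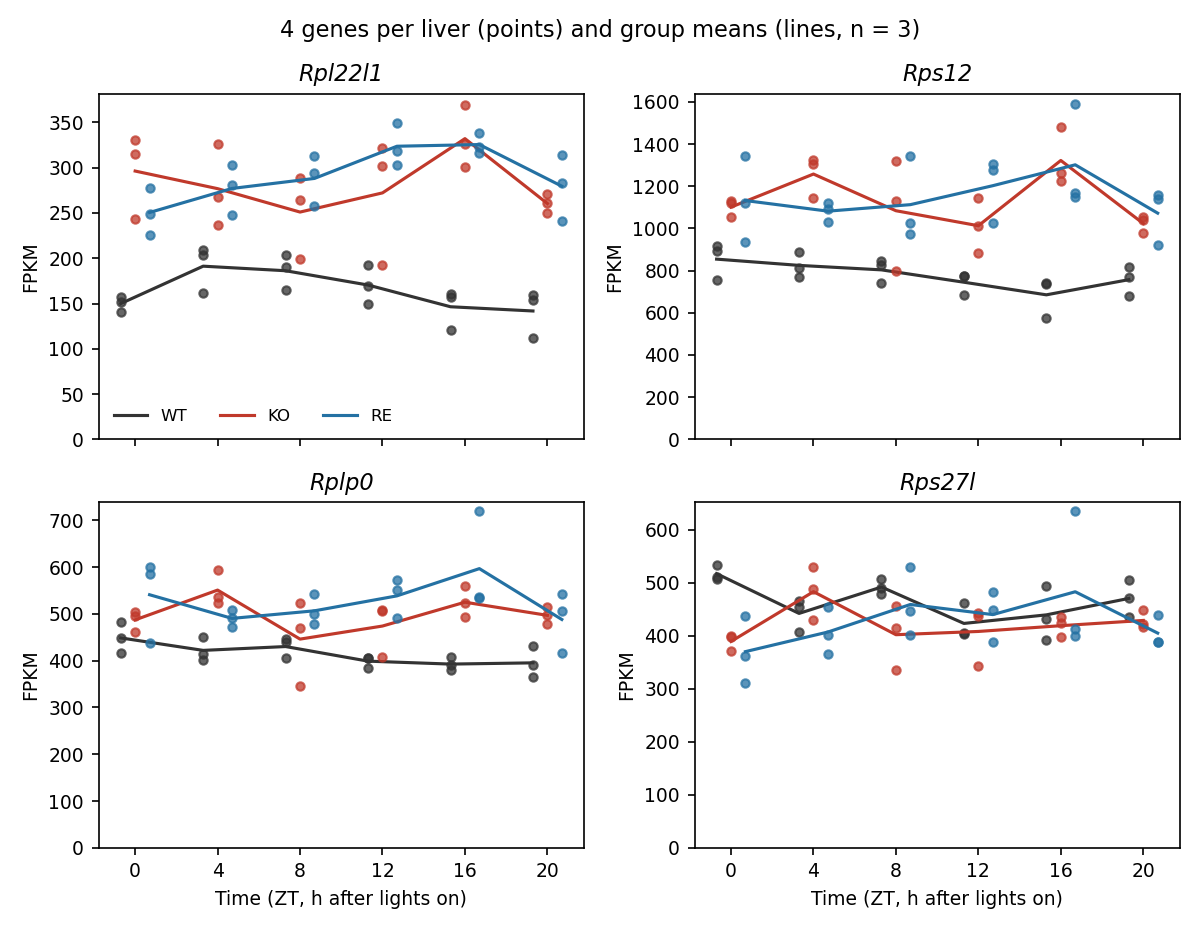
FPKM (y axis, from 0) of Rpl22l1, Rps12, Rplp0 and Rps27l in each library (points) against time of day (ZT, x axis), with lines through group means (n = 3). Rpl22l1 and Rps12 in RE lie above every WT library; Rps27l is higher in WT at ZT0, with a mean of 517 FPKM against 389 in KO and 370 in RE.

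Among the other large subunit proteins, Rpl13a rose by 0.39 in KO and 0.45 in RE, Rpl30 by 0.29 and 0.47, Rpl12, next to the stalk base, by 0.38 and 0.41, Rpl17 by 0.37 and 0.42, and Rpl3, which reaches toward the peptidyl transferase centre, by 0.34 and 0.39 (log2, all called by limma). Rpl3 had 247, 295 and 344 FPKM as lowest, median and highest WT values, and 282, 377 and 445 in KO. Rpl4 and Rpl15, which varied least of the members between libraries of 1 group (SD 0.12 on the log2 scale each), rose by 0.27 and 0.23 in KO and by 0.32 and 0.34 in RE. Rpl5 and Rpl11 travel with 5S rRNA and can bind Mdm2, the brake on p53. Rpl5 rose by 0.28 (SE 0.05) in KO and 0.35 in RE, and Rpl11 by 0.20 (SE 0.06) and 0.28. Rpl10, a protein that joins the large subunit late, rose by 0.20 and 0.26.

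The P stalk, which recruits the elongation factors, is built from Rplp0 and pairs of Rplp1 and Rplp2. Rplp0 had means of 415 ± 29.8 FPKM in WT (SD, n = 18), 497 ± 54.5 in KO and 527 ± 68.4 in RE, a rise of 0.25 (SE 0.05, adjusted p 6.06e-05, limma) and 0.34 (adjusted p 4.70e-07). WT libraries ran from 364 to 483 FPKM and RE libraries from 415 to 720, so the ranges overlapped. Rplp1, one of the 5 most abundant members (mean 1325 FPKM), rose by 0.33 in both KO and RE (SE 0.07). Rplp2 rose by 0.26 in KO and 0.19 in RE. Its call in RE (adjusted p 0.0255) ended in 4 of the fits that left out 1 library, with adjusted p up to 0.0540. The other most abundant members were Rpl41 (1578 FPKM), Rps29 (1543), Rps27rt (1507) and Rpl10 (1460), and the 10 most abundant members took 25.6% of all member FPKM.

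In the small subunit, Rps7 rose by 0.39 in KO and 0.44 in RE (SE 0.06). Rps6, the protein that S6 kinases phosphorylate when mTOR is active, had means of 346 ± 28.7 FPKM in WT (SD, n = 18), 410 ± 46.4 in KO and 420 ± 65.3 in RE. Its difference was 0.24 (SE 0.05, adjusted p 0.000207, limma) and 0.27 (adjusted p 3.22e-05). Rps4x, on the X chromosome, rose by 0.16 in KO and 0.20 in RE. Rpsa, also known as the laminin receptor precursor, had a difference of 0.14 in KO that missed the threshold (adjusted p 0.0527) but passed it in 16 of the 54 fits that left out 1 library, and rose by 0.24 in RE (adjusted p 0.00105).

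Rps27l went the other way. It encodes a paralogue of the small subunit protein Rps27 and is known as a p53 target (chromosome 9, 66944624 to 66949522, mm10). It had a lowest value of 393, a median of 469 and a highest value of 533 FPKM in WT, against 335, 423 and 530 in KO and 311, 407 and 636 in RE. These ranges overlap nearly in full. The level fell by 0.14 in KO (log2, SE 0.06, adjusted p 0.0386, limma). That call ended in 14 of the 54 fits that left out 1 library and without the filter on low genes (adjusted p up to 0.0747). In RE the difference was -0.13 (adjusted p 0.0517), not called, though 12 of those fits called it as lower (adjusted p down to 0.00504). Of the 8 other alternative limma fits, 5 also called it as lower in RE (adjusted p down to 0.00165). At ZT0 the WT libraries (507, 511 and 533 FPKM) lay above all RE libraries (311, 363 and 437), with a fall of 0.50 in RE (SE 0.14, adjusted p 0.0138).

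The members that were not called in KO besides Rpsa were Rps4l (-0.25), Rps27 (-0.10), Rpl37rt (0.05), Rps2 (0.09), Rpl34 (0.10), Rps18 (0.11), Rpl29 (0.14), Rps19 (0.14), Rps27rt (0.14) and Rps14 (0.16). In RE they were Rps4l (-0.16), Rps27l, Rps27 (0.25), Rpl37rt (0.10), Rps2 (0.15, adjusted p 0.0524, called in 12 of the 54 fits) and Rpl34 (0.12, adjusted p 0.176). Rps4l, a RefSeq transcribed pseudogene, and Rps27 were the most variable within groups, with an SD of 0.44 and 1.27 (log2). The uncalled differences of Rps27 and Rpl37rt have no settled sign. Without 1 library Rps27 ran from -0.23 to 0.11 in KO and from -0.01 to 0.45 in RE, and Rpl37rt from -0.00376 to 0.0932 in KO.

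Several of these genes share sequence with another row, and how reads were divided between them is uncertain. Of the 50-base stretches of Rps27rt (chromosome 9, 114982366 to 114982739, mm10), 91.1% also occur in Rps27. Rps27rt had a mean of 1507 FPKM and Rps27 11.3, with Rps27 above 20 FPKM in 7 of 54 libraries and a median of 4.09. Added together they rose by 0.28 in RE (adjusted p 0.000508, limma) and differed by 0.14 in KO (adjusted p 0.0864). Rpl34 shares 71.5% of the stretches of Rpl34-ps1, a row that the symbol rule leaves out. Summed with it, Rpl34 rose by 0.23 in KO (adjusted p 0.00637) and by 0.31 in RE (adjusted p 0.000397), where Rpl34 alone was not called. Rpl37rt shares 38.7% with Rpl37, and the pair summed rose by 0.27 in KO and 0.36 in RE. The sums were added after seeing the data.

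Calls at single times were spread unevenly over the day, with the highest counts at ZT4 and ZT16 in KO and at ZT12 and ZT16 in RE. At ZT16, 43 members were higher in KO (6.48% of all tested genes were) with a member median of 0.43, and 69 were higher in RE (9.29%) with a median of 0.58. Without RE ZT16 library 2 the RE count at that time was 34 and the median 0.39. At ZT12, 9 were higher in KO (10.2%; median 0.23) and 33 in RE (9.62%; median 0.37). At ZT20, 10 were higher in KO (5.58%; median 0.29) and 14 in RE (6.80%; median 0.24). By day, 38 were higher in KO at ZT4 (7.56%; median 0.43), where RE had 1 (4.91%; median 0.22). At ZT8, 1 was higher in KO (5.28%; median 0.04) and 5 in RE (6.96%; median 0.23). At ZT0, 1 was higher in KO (4.14%; median 0.03), and in RE Rpl22l1 was higher and Rps27l lower (4.56% higher and 4.82% lower of all genes; median 0.12).

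The counts at single times rest on 3 libraries against 3 and move with single libraries, while the medians kept their sign except in KO at ZT0 and ZT8. At ZT16, leaving out any 1 of the 6 KO and WT libraries gave 6 to 28 members in KO. At ZT4, the KO count was 10 to 19 without KO library 0 or 2 or WT library 0 or 1. At ZT12, the KO count was 3 to 16 (WT library 1, KO library 2, and RE ZT16 library 2, through the shared spread), and the RE count fell to 7 to 18 without any 1 WT library or RE library 0 or 2. At ZT20, the KO count was 1 to 6 without WT library 2 or any 1 KO library and 19 without RE ZT16 library 2, and the RE count 2 to 9 without any 1 WT library or RE library 0 or 2. At ZT8, the RE count was 1 to 3 without any 1 WT library or RE library 0 or 1. The small counts at ZT0 and ZT4 in RE moved to 1 and 7 (WT ZT0 library 0, RE ZT0 library 0) and to 0 and 3 (WT ZT4 library 1 or RE ZT4 library 0, and RE ZT16 library 2). Those in KO at ZT0 and ZT8 moved between 0 and 2. The KO median at ZT8 was 0.22 without KO ZT8 library 1 and -0.11 without library 2. At ZT0 it lay between -0.04 and 0.08.

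**Figure D4:**
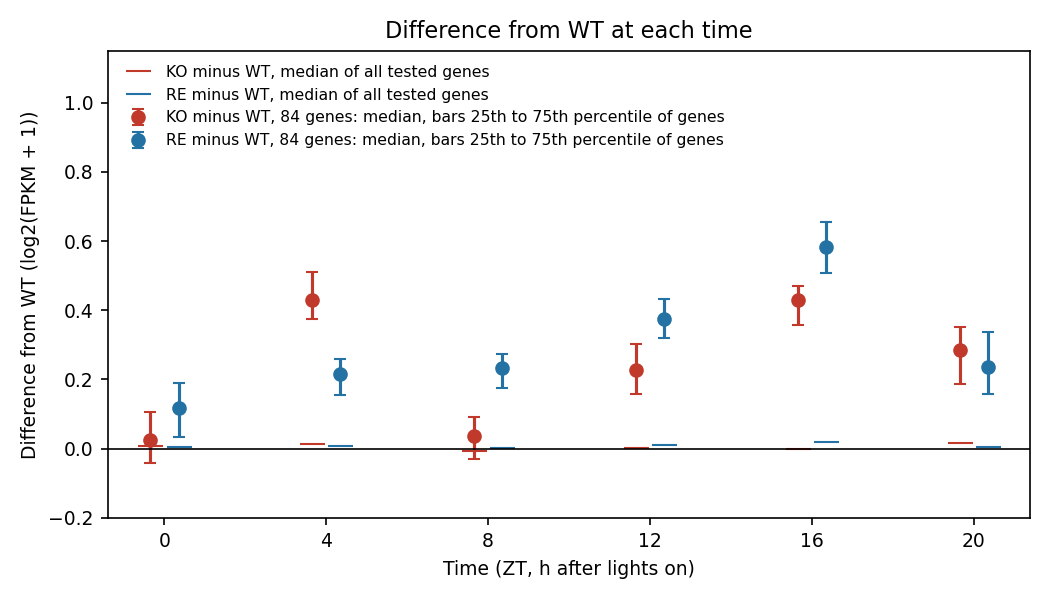
Median difference from WT over the 84 genes at each time (log2(FPKM + 1), y axis; bars run from the 25th to the 75th percentile of genes and are no error of the median) against time of day (ZT, x axis), with short lines at the median of all tested genes. The KO medians are 0.43 at ZT4 and ZT16 and near 0 at ZT0 and ZT8; the RE median is highest, 0.58, at ZT16.

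The genes described next were named for a small adjusted p at the time given, so they describe that time and do not test the timing of the others. At ZT16, Rps15a had 25.3, 26.3 and 28.5 FPKM in WT, 36.9, 38.0 and 43.5 in KO and 37.9, 41.8 and 63.5 in RE, with no overlap of either genotype with WT (0.55 in KO, adjusted p 0.000915; 0.78 in RE, adjusted p 4.37e-06, limma). Without RE ZT16 library 2, at 63.5 FPKM, the RE difference was 0.56 (adjusted p 0.000236). At ZT12, Rpl26, known to bind p53 mRNA, was higher by 0.81 in KO (SE 0.19, adjusted p 0.00171) and 0.84 in RE. At ZT4, Rpl14 was higher by 0.58 in KO (SE 0.12, adjusted p 0.00161). Whether a difference varied among the 6 times was tested as 5 contrasts, a test added after seeing the data. It called 0 members for KO minus WT (5.79% of all genes; 6 members at an unadjusted p under 0.05) and 3 for RE minus WT (7.59%), namely Rpl34 (adjusted p 0.0131), Rps15a (0.0309) and Rps27rt (0.0327). The RE count was 1 without RE ZT16 library 2, RE ZT0 library 0, WT ZT0 library 0, or WT ZT16 library 0 or 2, and the KO count was 1 or 2 without any 1 of 7 libraries.

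No member was called between the Bmal1-deficient genotypes. By limma 0 of 84 members differed between RE and KO averaged over time (0.192% of all genes called; 4 members had an unadjusted p under 0.05). The member median was 0.05. That median turned to -0.02 when libraries were scaled by the FPKM outside the members and to -0.01 without the pair of extreme libraries. Apart from Rps27, the 95% intervals of RE minus KO lay between -0.21 (Rplp2) and 0.37 (Rps4l). Closest to the threshold was Rpl15 (0.10, interval 0.02 to 0.19, adjusted p 0.246). At each single time 0 members were called as well, beside 0 genes in all at ZT0, ZT4 and ZT20, 0.256% at ZT8, 0.467% at ZT12 and 3.27% at ZT16. At ZT4 the members' median was -0.24, and 12 had an unadjusted p under 0.05.

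Daily rhythms of ribosomal protein mRNA were small. A 24 h cosine was called for 2 of 84 members in WT by limma, beside 34.8% of all tested genes, with a median amplitude of 0.11 (mean to peak, log2) over the members and 0.14 over all genes. That fit pools the spread of all genotypes, and the member mean varied within groups with an SD of 0.10 in WT, 0.17 in KO and 0.20 in RE. The part of the pooled spread in the WT count was not tested. In the WT libraries alone 31 members were called (36.9%, beside 48.4% of all genes), with amplitudes from 0.11 to 0.24, and 29 of these peaked between ZT0 and ZT6. Over all 84 members, called or not, the fitted WT peak lay between ZT0 and ZT6 for 78. In KO 0 members were called by limma (0.0366% of all genes; 1 at an unadjusted p under 0.05), and 0 in the KO libraries alone (0.00915%). In RE 7 were called (46.8%), and the fitted peak lay between ZT12 and ZT18 for 59 of 84. Without RE ZT16 library 2 and KO ZT8 library 1 that number was 31, with 33 between ZT6 and ZT12, and 5 members were called. Scaled by the FPKM outside the members, 33 were called in RE and 64 peaked between ZT12 and ZT18. Members of 1 library move together: the mean over members had an SD within groups of 0.16, against a median of 0.19 for a single member. The 84 peaks are therefore not 84 separate measurements.

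Rpl7l1, a paralogue of Rpl7 (chromosome 17, 46773907 to 46782656, mm10), was the one member called as rhythmic in both WT and RE in the fit of all genotypes. In the WT libraries alone and the RE libraries alone, Rpl22l1, Rpl7l1 and Rps27rt were called in both. The WT values of Rpl7l1 were 23.4, 23.7 and 26.5 FPKM at ZT4 and 32.3, 33.0 and 34.5 at ZT16, which do not overlap. The amplitude was 0.19 in WT with a peak at ZT18.5 (SE 0.05, adjusted p 0.00405, limma) and 0.22 in RE with a peak at ZT17.4 (adjusted p 0.000715). In KO it was 0.08 (adjusted p 0.636), and the rhythm difference between KO and WT was not called (adjusted p 0.431). That WT peak lies outside the ZT0 to ZT6 window of most members. Rpl7l1 was also the member called for any difference among times in WT (1 of 84, beside 23.5% of all genes).

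Rpl22l1 was the other WT call, with an amplitude of 0.24 and a peak at ZT7.02 (adjusted p 0.0161, limma). It had 161, 204 and 209 FPKM at ZT4 and 112, 154 and 159 at ZT20, so the lowest value at ZT4 stood just above the highest at ZT20. The call ended without WT ZT8 library 0 or WT ZT20 library 2 (adjusted p up to 0.0898). Its rhythm differed between KO and WT by 0.33 (adjusted p 0.0442), the 1 member called for that difference (9.06% of all genes). That call ended in 20 of the 54 fits that left out 1 library.

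In RE the other rhythmic members were Rpl34 (0.33, peak ZT12.9, adjusted p 0.000956), Rps27rt (0.29, ZT13.3, adjusted p 0.00204), Rps15a (0.18, ZT15.0), Rps25 (0.19, ZT14.4), Rplp2 (0.22, ZT5.23) and Rps18 (0.19, ZT12.7), by limma. The call of Rps18 (adjusted p 0.0476) ended in 35 of the 54 fits that left out 1 library (adjusted p up to 0.201), that of Rplp2 in 8, that of Rps25 in 5 and that of Rps15a in 1. Rps27rt had 1646, 1836 and 3412 FPKM at ZT16 in RE and 1350, 1376 and 1538 at ZT20. The 3412 is RE ZT16 library 2. Without that library 3 members were called, Rpl7l1, Rpl34 and Rps27rt, while leaving out RE ZT0 library 2, RE ZT12 library 1 or RE ZT16 library 0 or 1 gave 11 to 17. In the RE libraries alone 4 were called (28.4% of all genes). Any difference among the 6 times was called for 5 members in RE (39.3% of all genes), namely Rpl34, Rpl7l1, Rps27rt, Rps15a and Rps18, and for 0 in KO (0.0457%; 5 at an unadjusted p under 0.05). The RE number was 3 without RE ZT16 library 2 and 8 to 13 without RE ZT0 library 0 or 2, KO ZT8 library 1, or RE ZT16 library 0 or 1.

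The rhythm itself differed between RE and WT for 5 members (14.1% of all genes), with sizes of 0.43 for Rpl34 (adjusted p 0.00798), 0.40 for Rps27rt (0.00888), 0.29 for Rps15a (0.00952), 0.33 for Rpl39 (0.0207) and 0.26 for Rps3 (0.0479), by limma. Leaving out 1 library gave 3 to 14 such members, and without RE ZT16 library 2 Rpl39 and Rps3 were not called (adjusted p 0.0607 and 0.110). The Rpl34 results depend on how reads were divided: Rpl34-ps1 had means of 422 FPKM at ZT0 and 310 at ZT16 in RE, where Rpl34 had 311 and 568. Summed, the RE rhythm was 0.14 (adjusted p 0.241) and its difference from WT was not called (adjusted p 0.281). Rps27rt summed with Rps27 kept its RE rhythm (0.29, adjusted p 0.00176). No member differed in rhythm between RE and KO (0 of 84 by limma, 3.07% of all genes; 3 at an unadjusted p under 0.05).

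**Figure D5:**
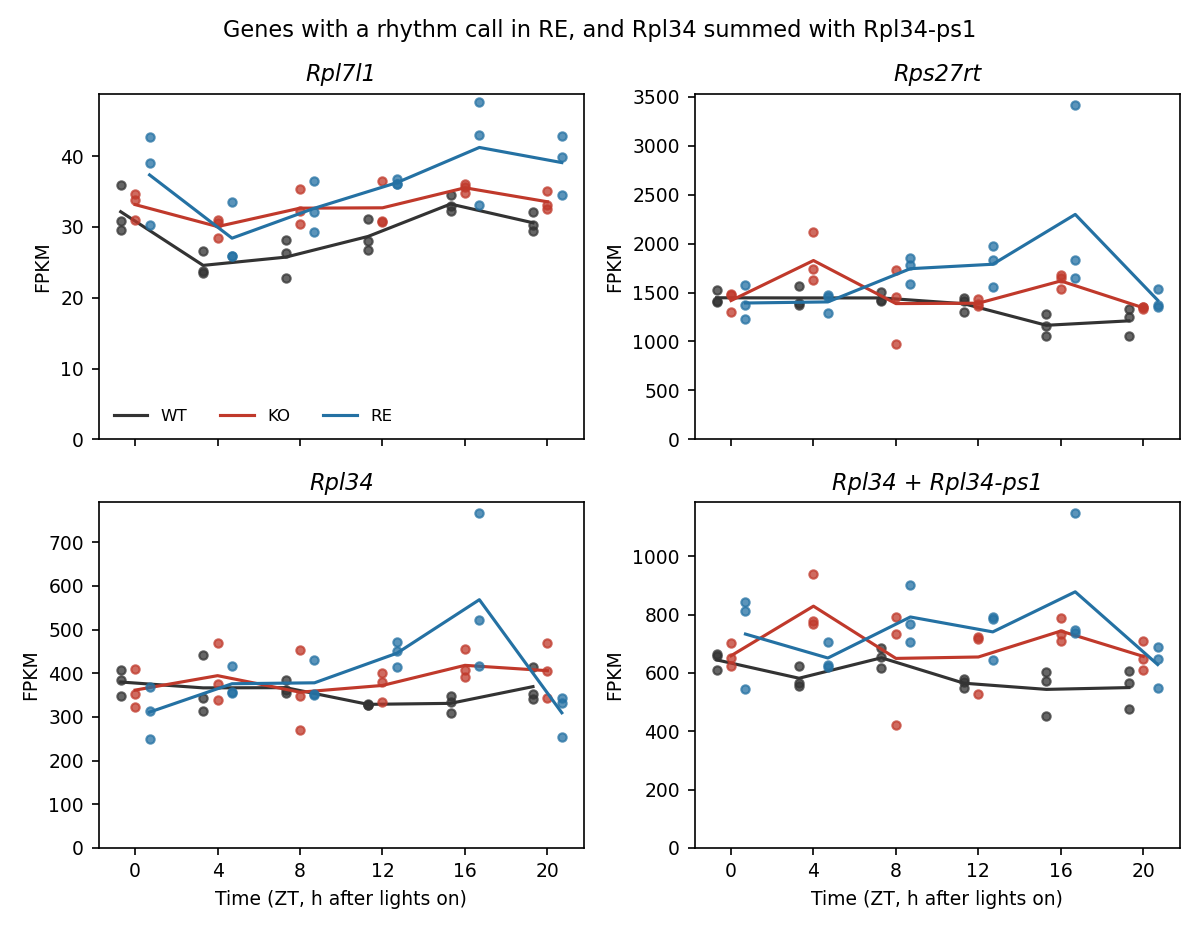
FPKM (y axis, from 0) of Rpl7l1, Rps27rt, Rpl34 and the sum of Rpl34 and Rpl34-ps1 in each library (points) against time of day (ZT, x axis), with lines through group means (n = 3). RE ZT16 library 2 is the highest point for Rps27rt (3412 FPKM) and Rpl34 (766 FPKM), and the rise of Rpl34 in RE between ZT0 and ZT16 is smaller once Rpl34-ps1 is added.

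Other parts of the translation machinery were read from gene lists. Of the ribosomal proteins with other symbols, Gnb2l1 (the scaffold Rack1) rose by 0.23 in KO (adjusted p 0.000191, limma) and 0.29 in RE, while Fau, whose product is fused to a ubiquitin-like protein, was not called (0.10 and 0.15). Among 21 other TOP messages and elongation factors, 12 rose and 1 fell in KO, and 15 rose and 0 fell in RE, with medians of 0.17 and 0.15. The shares that rose, 57.1% and 71.4%, stand beside 22.1% and 24.2% of all tested genes. Gas5, a non-coding TOP transcript, rose by 0.35 and 0.44, and Eef1g and Eef1b2, subunits of the elongation factor 1 complex, rose by 0.33 and 0.28 in KO. Of 28 initiation factors, 5 rose and 4 fell in KO and 13 rose and 1 fell in RE, with Eif1a up by 0.40 and 0.60 and Eif1 down by 0.24 in KO. The share of initiation factors that rose was 17.9% in KO, under the 22.1% of all genes, and 46.4% in RE, beside 24.2%.

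Genes that act upstream of the ribosome follow. Of 20 genes for ribosomal RNA transcription and ribosome assembly, 5 rose in KO and 9 in RE and none fell, among them Polr1c, a subunit of RNA polymerase I (0.25 and 0.30), Bop1 (0.20 and 0.26) and Ncl (0.15 and 0.22). In KO the 25% that rose is close to the 22.1% of all genes, and in RE 45% rose beside 24.2%. Of 21 tested genes of mTOR signalling to translation, 4 rose and 7 fell in KO, and 1 rose and 6 fell in RE. The shares that rose were 19.0% and 4.76%, beside 22.1% and 24.2% of all genes, and those that fell 33.3% and 28.6%, beside 20.2% and 21.7%. Mtor fell by 0.20 in KO and by 0.24 in RE, and Eif4ebp1, the repressor of cap binding that mTOR inactivates, fell by 0.42 and by 0.45. Ddit4, an inhibitor of mTOR complex 1, rose by 1.04 (SE 0.17) in KO and 0.85 in RE.

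Properties shared by ribosomal protein mRNAs were read in other genes too. Members are short, with a median annotated transcript of 926 bases, and abundant, with 76 of 84 above 100 FPKM. Among 562 other tested genes with transcripts under 1000 bases the median difference was 0.04 in KO and 0.05 in RE, and 22.1% and 26.9% were higher. Among 804 other genes of at least 100 FPKM it was 0.04 and 0.06, with 30.2% and 37.2% higher. The part of transcript length and abundance in the member differences was not tested beyond these values.

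Marker genes of other cell types moved with genotype as well. Their counts stand beside 22.1% higher and 20.2% lower of all tested genes in KO, and 24.2% and 21.7% in RE. Of 7 Kupffer cell markers, 5 were lower in KO and 7 in RE, and their summed level ran from 85.9 to 190 FPKM in WT, 52.9 to 183 in KO and 39.6 to 176 in RE, with none at 0. Of 5 gut markers, 4 were lower in KO and 2 in RE (81.1 to 213, 41.5 to 117 and 20.4 to 154 FPKM). These sums rest mostly on Fabp2 (mean 99.1 FPKM). Reg3g was at 0 in 39 libraries and Phgr1 in 48. Reg3g, Phgr1 and Vil1 averaged 0.573, 0.110 and 0.115 FPKM over all libraries, so they passed the filter on low genes only through some groups. A call of these genes as lower can follow from that filter. All 4 tested lymphocyte markers and 3 of 5 red cell markers were lower in RE, and 0 and 1 in KO. Each of the 7 listed lymphocyte markers averaged under 1 FPKM over all libraries, with Cd79b highest at 0.870. Those tested passed the filter only through some groups, so their calls as lower can follow from it too. Of 7 hepatocyte markers, 4 were higher and 2 lower in KO, and 3 and 2 in RE. Alb, one of these 7, was listed at 0 in every WT library, so its comparison with WT does not measure hepatocyte content. Endothelial markers (1 higher and 1 lower of 6 in each genotype) and stellate cell markers (1 higher in KO and 0 in RE of 6) were mostly not called. Of 5 bile duct markers, 2 (40%) were higher and 0 lower in each genotype. Their summed level had a median of 27.5 FPKM over WT libraries, against 68.9 over KO libraries and 64.2 over RE libraries. The ranges overlapped (18.1 to 127, 26.0 to 171 and 20.7 to 149 FPKM). These sums rest mostly on Spp1 (mean 54.9 FPKM), while Krt7 and Epcam averaged 0.773 and 0.658 FPKM. Of the neutrophil and pancreas markers 0 of 2 and 0 of 1 tested were called. The part of cell composition in the member differences was not tested.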

How the data were processed

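RNA sequencing of 54 liver libraries was used. The authors deposited FPKM values per gene; reads were aligned with TopHat to mm10, per the submitters' processing notes, and for the quantification tool and its annotation a name is not given in the sources used here. Columns were assigned to their group by name. Depth is unknown, since the deposited FPKM carry no counts.

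Values were analysed as log2(FPKM + 1), which understates changes of low genes. Genes reaching a group mean of 1 FPKM in any group (10932) were fitted with 18 group means in limma 3.58.1 under R 4.3.3 (eBayes with trend, 36 residual degrees of freedom), with Benjamini-Hochberg adjustment over all of them and calls at 0.05. Level differences average the 6 times, and rhythms are F tests of cosine and sine contrasts. The scripts were tested on simulated data. Cell type markers and gene lists are those reported. Not every listed gene is reported here. Named were, per test, all members called where there were 8 or fewer and otherwise those of smallest adjusted p, the most and least abundant and variable members, and members of known roles. The text gives part of these, and members listed as not called, Rpl12, Rpl13a and Rpl30 were named after their values were seen. The members and lists were chosen with earlier results of these data known. Alternatives were a pseudocount of 0.1, other filters and scalings, genotypes alone, sample weights and leaving out libraries. Sequences and gene positions are from RefSeq and GENCODE tables on GRCm38.p6 (84 members matched).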

Additional observations from a re-analysis of the deposited data

Results flagged for a closer look

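For 6 members the 24 h rhythm differed between genotypes by a test of the difference itself (limma, adjusted over all tested genes). Sizes are lengths of the vector between the cosine and sine terms of both genotypes (log2). Between KO and WT it was 0.33 for Rpl22l1. Between RE and WT it was 0.43 for Rpl34, 0.40 for Rps27rt, 0.29 for Rps15a, 0.33 for Rpl39 and 0.26 for Rps3. The calls of Rpl22l1 and Rps3 ended in 20 and 38 of the 54 fits that left out 1 library, and that of Rpl39 in 3. That of Rpl34 ended when it was summed with Rpl34-ps1.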

How the results depend on the processing

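No level difference called in the fit of all libraries changed sign among the alternatives run, while the uncalled Rps27 and Rpl37rt did. Counts of level calls moved little, although single members near the threshold gained or lost a call: KO against WT gave 71 to 81 members and RE against WT 78 to 80 over the alternatives other than leaving out 1 library, 69 to 78 and 77 to 80 without 1 library, and RE against KO 0 throughout. Counts of rhythms and of calls at single times moved. Left to the libraries of the genotypes compared alone, 24 h rhythms were 31 in WT and 4 in RE, any difference among times 21 in WT and 1 in RE, variation of the difference among times 4 for KO and 1 for RE, the rhythm difference KO against WT 0, and KO calls summed over single times 164 (102 in the common fit). With limma sample weights, which gave RE ZT16 library 2 the smallest weight (0.191), rhythms were 31 in WT, 1 in KO and 11 in RE, any difference 34, 4 and 12, variation 22 for KO and 7 for RE, rhythm differences 13 for RE against WT and 2 for RE against KO, and calls summed over single times 264 for KO, 223 for RE and 5 for RE against KO. Scaled by FPKM outside the members, any difference was 2 in WT and 21 in RE, rhythms 33 in RE and the rhythm difference RE against WT 17. Without a filter the rhythm difference KO against WT was 0. Without RE ZT16 library 2 and KO ZT8 library 1, chosen after seeing the data, rhythms were 12 in WT, any difference 4 in WT and 3 in RE, variation 1 for KO, the rhythm difference KO against WT 0, and KO calls over single times 183. The cause was not tested. Without 1 library, 24 h rhythms ranged from 1 to 5 in WT, 0 to 0 in KO and 3 to 17 in RE, any difference from 1 to 1 in WT, 0 to 0 in KO and 3 to 13 in RE, variation from 0 to 2 for KO and 1 to 4 for RE, and rhythm differences from 0 to 2 for KO against WT, 3 to 14 for RE against WT and 0 to 2 for RE against KO. Calls summed over single times then ranged from 64 to 151 for KO, 96 to 137 for RE and 0 to 3 for RE against KO. No paired analysis was possible because the columns carry numbers from 0 to 2 that are not the replicate numbers of the sample titles.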
